A study of Danio rerio with 5 samples.

Results

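The long arm of chromosome 4 carried 348 of the 7258 places on the zebrafish nuclear genome where Drl-FLAG or Blf-FLAG was called in both of its libraries (4.79%). The arm was taken as chromosome 4 from 30 Mb (position 30000000, build GRCz11) to the last peak, 48.0 Mb in all. Peaks from any of the 4 deposited lists were merged into 1 site wherever they shared a base. A site was kept where it held a peak in both Drl-FLAG lists, in both Blf-FLAG lists or in all 4, and it belonged to the arm where its centre lay there. The first kept site inside the boundary ran from 30915460 to 30916021 and the last one outside from 29722414 to 29722762. Joining gave 574 sites on the arm. The 226 not kept comprised 63 in a single Drl-FLAG list, 154 in a single Blf-FLAG list and 9 in 1 list of each factor.

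Occupancy was measured by CUT&Tag, in which an antibody brings the transposase Tn5 to a protein on chromatin and Tn5 then cuts and tags the DNA beside it. Drl-FLAG libraries (2) came from blf-/-;drl 4KO embryos with drl-Flag mRNA, Blf-FLAG libraries (2) from blf-/-;drl 4KO embryos with blf-Flag mRNA, and an input library without antibody (1) from embryos with drl-Flag mRNA; the input was not analysed here. All were RFP+ hematopoietic progenitors sorted by FACS at 20 hpf (hours post fertilisation), after digestion with Liberase, and anti-FLAG was the antibody in the 4 libraries analysed. By these labels no group kept endogenous blf or the deleted drl genes, and the tagged protein came from injected mRNA and not from its own locus. One protocol text lists both mRNAs for all libraries, so the factor of each library rests on its title and genotype label. The identity of the sorted cells was not checked here, since the peak lists hold no expression.

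Draculin (Drl) and bloody fingers (Blf) are zebrafish zinc-finger proteins of the blood lineage. Zinc fingers of this kind are strung in tandem, and neighbouring fingers read neighbouring bases, so that changes in the fingers change the DNA bound. The long arm of zebrafish chromosome 4 is unlike the other arms of this genome: it is largely heterochromatic and late replicating, rich in repeats, and home to tandem families of zinc-finger genes, NLR immune receptor genes and small structural RNA genes. Copies of a repeat are hard to tell apart by short reads, and an assembly can hold fewer copies than the genome does.

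The Drl-FLAG lists held 5289 and 5383 peaks, of which 208 and 214 lay on the arm. The Blf-FLAG lists held 5482 and 5449 peaks, of which 353 in each lay on the arm. Fragment counts at summits and the local background to which each peak was compared were worked out from the deposited fold and p-value. That background is called control background here; which control the authors used is not given in the sources used here. Coverage of the Drl-FLAG lists was 2.94 times that of the Blf-FLAG lists, and the fewest fragments at a called summit were 8 for Drl-FLAG and 4 for Blf-FLAG. The absence of Blf at a Drl-only site therefore rests on fewer fragments than the absence of Drl at a Blf-only site. Fragment counts of the 2 lists of a factor differed by less than sampling noise (squared difference over sum 0.345 for 248 Drl-FLAG summits and 0.304 for 121 Blf-FLAG summits, where independent Poisson counts give 1). On the arm these were 0.216 over 23 summits and 0.588 over 31. The 2 lists were therefore counted as 1 sample per factor, no test over samples was possible, and every comparison below is a description. Intervals are 95% exact intervals (Clopper-Pearson for shares, order statistics for medians); they hold for counting error alone and take sites as independent. In sorted bulk cells, binding in fewer cells and weaker binding per cell cannot be told apart.

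Blf-only sites were the largest class on the arm. Sites called for Drl only numbered 78, or 22.4% of the arm's sites (18.1 to 27.2), while over the whole genome 42.6% of kept sites were of this class. Blf-only sites numbered 164, or 47.1% (41.8 to 52.5), against 35.3% over the whole genome. Sites of both factors, with a peak in all 4 lists, numbered 72, or 20.7% (16.6 to 25.3), against 15.5%. A further 10 sites had both Drl-FLAG lists and 1 Blf-FLAG list, where the whole-genome share was 3.24%, and 24 had both Blf-FLAG lists and 1 Drl-FLAG list, where it was 3.38%. Seen the other way, the arm held 2.52% of the genome's 3091 Drl-only sites, 6.40% of its 2561 Blf-only sites (5.49 to 7.42) and 6.39% of its 1126 both-factor sites (5.04 to 7.99). The interval of the Drl-only share reached up to 3.14%. With the 2000 peaks of highest q in each list, the arm's share of Blf-only sites was 10.02%. Without sites of raised control background, described below, the arm held 1.90% of Drl-only, 3.53% of Blf-only and 3.63% of both-factor sites, where it covered 3.57% of the nuclear span. That span was left whole, with sequence of raised background included. Of sites with a read background, 55.8% on the arm and 22.9% elsewhere were left out.

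The makeup of the arm was outside the range of every other chromosome for the factor-only classes. Across the 24 other chromosomes the Drl-only share ran from 35.1% on chromosome 15 to 51.4% on chromosome 16, all above the arm. The Blf-only share ran from 25.4% on chromosome 5 to 43.4% on chromosome 14, all below the arm. For sites of both factors the arm was within the range, with 2 chromosomes above it and 22 below. The part of chromosome 4 before 30 Mb held 156 sites. Their Drl-only share, 37.8% (30.2 to 45.9), and Blf-only share, 29.5% (22.5 to 37.3), lay within the range of the other chromosomes. Their both-factor share, 25.6% (19.0 to 33.2), lay above the highest of them, 23.7% on chromosome 8.

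**Figure D1:**
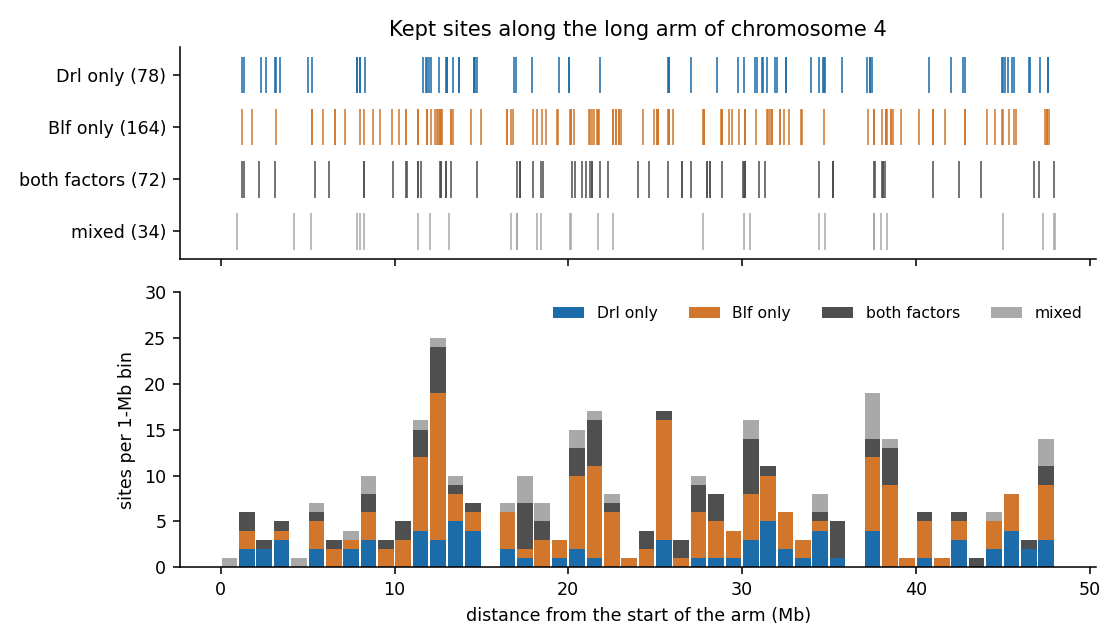
Kept sites along the long arm, by distance in Mb from its start at 30 Mb. The upper panel has 1 line per site for Drl-only, Blf-only, both-factor and mixed sites (numbers in brackets), and the lower panel stacks the same sites per 1-Mb bin; the highest bin holds 25 sites and 2 bins hold none.

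Sites were spread over the whole arm but not evenly. The 48 bins of 1 Mb held a median of 6 sites, with 2 bins empty (45 to 46 Mb and 66 to 67 Mb) and a highest count of 25 (42 to 43 Mb). That highest bin held 3 Drl-only, 16 Blf-only and 5 both-factor sites, and its 16 was also the highest Blf-only count. The Drl-only sites were never denser than 5 per Mb, at 43 to 44 Mb and at 61 to 62 Mb, and the both-factor sites never denser than 6, at 60 to 61 Mb. In bins of 5 Mb the stretch from 40 to 45 Mb was the densest for the 3 classes, with 16 Drl-only, 32 Blf-only and 12 both-factor sites. The stretch from 30 to 35 Mb was the sparsest, with 16 kept sites, 7 of them Drl-only and 3 Blf-only.

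Stretches of 5 Mb differed in makeup, with Blf-only shares from 18.8% at 30 to 35 Mb to 61.9% at 55 to 60 Mb, but the larger parts of the arm were alike. Split at its midpoint, 54.0 Mb, the arm held 173 sites in the part nearer its end and 175 in the part nearer the boundary. Drl-only shares were 23.7% and 21.1%, Blf-only shares 48.0% and 46.3%, and both-factor shares 19.7% and 21.7%. The last kept site ran from 77993151 to 77993922, with folds of 4.66 in Drl-FLAG 2 and 8.79 and 6.76 in the Blf-FLAG lists. Like the first kept site, it had both Blf-FLAG lists and 1 Drl-FLAG list.

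The longest stretches without a kept site were bounded by sites of the same class. Centres were 1544 kb apart between the Blf-only sites at 44951570 to 44952402 and 46495688 to 46496488. They were 1437 kb apart between the Drl-only sites at 65739806 to 65740300 and 67176607 to 67177063. The next, 1037 kb, lay between the Blf-only sites at 69156927 to 69157824 and 70194466 to 70194813.

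Between these gaps the sites lay close together. The median distance from centre to centre was 36.0 kb on the arm (21.1 to 55.8, 347 distances), against 90.9 kb elsewhere (86.6 to 95.9, 6885 distances). Without sites of raised control background the order turned, with 150.0 kb on the arm and 134 kb elsewhere, intervals that overlap. Leaving out sites lengthens distances, and a larger share was left out on the arm. With all kept sites, only chromosome 15 of the 24 other chromosomes had a shorter median than the arm, 32.7 kb. The lower quartile was 3.07 kb on the arm, against 18.6 kb elsewhere. Distances between 1 and 3.5 kb made up 26.8% of those on the arm (22.2 to 31.8, 93 distances) and 8.09% of those elsewhere (7.46 to 8.76). Between 3.5 and 10 kb the shares were close, 10.4% on the arm (7.37 to 14.1) and 9.70% elsewhere (9.01 to 10.4).

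**Figure D2:**
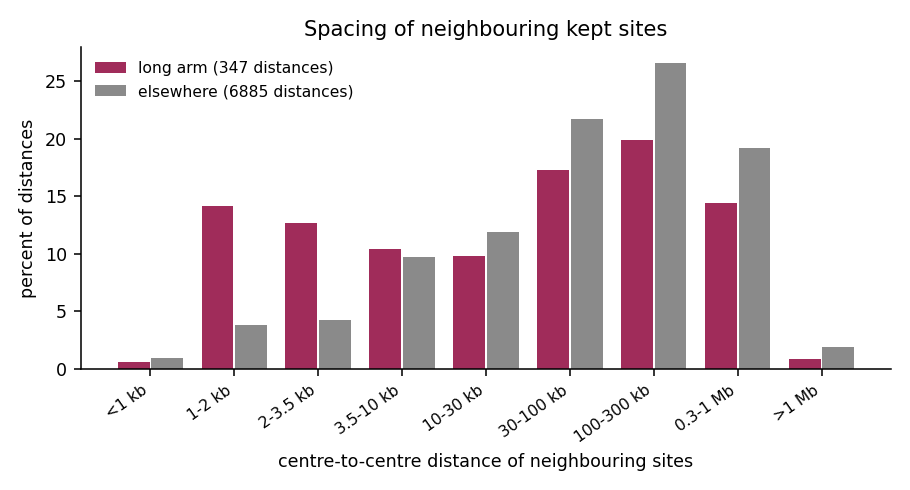
Centre-to-centre distances of neighbouring kept sites on the long arm (347, left bars) and elsewhere (6885, right bars), as a percentage of the distances in each set, by distance class. Bars for 1 to 2 kb and 2 to 3.5 kb are higher on the arm (14.1% and 12.7%) than elsewhere (3.83% and 4.26%).

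Close neighbours were more frequent on the arm in each of the 3 classes, with the largest difference for Blf-only sites. The intervals below take sites as independent, but close neighbours count for each other. Blf-only sites are also the most numerous class on the arm, which narrows their intervals. Another kept site lay within 10 kb, edge to edge, of 56.0% of the arm's sites (50.6 to 61.3), against 31.4% over the whole genome. By class this held for 37.2% of Drl-only (26.5 to 48.9), 62.8% of Blf-only (54.9 to 70.2) and 55.6% of both-factor sites (43.4 to 67.3). Elsewhere the shares were 26.8% (25.2 to 28.4), 25.7% (24.0 to 27.5) and 43.5% (40.4 to 46.5) in the same order. Of the 24 arm sites with both Blf-FLAG lists and 1 Drl-FLAG list, 70.8% had such a neighbour (48.9 to 87.4), against 45.2% elsewhere. Among arm sites without raised control background, described below, 30.3% had another such site within 10 kb. Neighbours of raised background were not counted there, so this share and the 56.0% differ in definition. Measured within a class, the median distance on the arm was 244 kb for Drl-only sites, 87.4 kb for Blf-only sites and 332 kb for both-factor sites. The corresponding values elsewhere were 223 kb, 287 kb and 458 kb, and only for Blf-only sites did the intervals of the 3 medians stay apart (14.2 to 145 kb and 263 to 316 kb). With the 2000 peaks of highest q in each list, the median spacing of all arm sites was 70.8 kb, over 176 distances against 347. Fewer sites lengthen distances, and the value elsewhere at this setting was not worked out.

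Close neighbours on the arm were often of the same class, mostly as pairs of Blf-only sites. Of 131 neighbouring pairs with centres 10 kb apart or closer, 76 (58.0%) were of the same class, and 53 of these were pairs of Blf-only sites. Drl-only sites paired with each other 8 times and with Blf-only sites 8 times. In the 216 pairs further apart, 35.6% were of the same class. Elsewhere the shares were 41.3% of 1292 close pairs and 38.9% of 5593 distant pairs. Closely spaced sites share a place on the chromosome, and these counts are not of independent events. The same-class share that the class makeup alone would give was not worked out.

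Joined by steps of at most 10 kb, the arm's sites formed 153 lone sites, 34 groups of 2, 14 of 3 and 13 of 4 or more. The last held 85 sites, of which 2 were Drl-only (2.35%), 57 Blf-only (67.1%) and 15 of both factors (17.6%). Elsewhere the 93 groups of 4 or more held 647 sites, with 24.7% Drl-only, 30.4% Blf-only and 31.4% of both factors. Among lone sites the arm was closer to the rest of the genome: 32.0% Drl-only, 39.9% Blf-only and 20.9% of both factors, against 45.7%, 36.9% and 12.3%.

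A run of evenly spaced sites stood out within the stretch from 67567418 to 67587301. Over these 19.9 kb lay 12 kept sites, 7 Blf-only, 4 with both Blf-FLAG lists and 1 Drl-FLAG list, and 1 of both factors. From 67568625 to 67580518, 8 consecutive sites had centres 1529.5 to 1622.5 bp apart, with a median of 1549 bp. Their widths were 900 to 1051 bp, with a median of 927 bp. Distances between the remaining kept centres of the 19.9-kb stretch were 1379.5 to 3172 bp. That stretch holds the tightest group of 5 consecutive sites on the arm, with outermost centres 6027 bp apart.

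Summits in that run were spaced still more evenly. In Blf-FLAG 2, all 7 summit-to-summit distances among the 8 sites were exactly 1549 bp. In Blf-FLAG 1 they lay between 1539 and 1559 bp. The same step was seen once beyond the run, at 67585725 to 67587301. Its summits lay 1549 bp from those of the site before it in both Blf-FLAG lists, with centres 1940.5 bp apart. Signal was also even along the run, with 33 to 45 fragments at the Blf-FLAG summits of the 8 sites. Over the 12 sites of the stretch it was 18.5 to 42 fragments, as means of the 2 lists, with a median of 38.5. At 67582834 to 67583496 the Blf-FLAG lists had 25 and 27 fragments. The first site was the lowest, with 19 and 18 fragments. The next site, at 67568625 to 67569552, had 39 and 38 fragments, and the 2 after it, at 67570174 to 67571100 and 67571723 to 67572649, had 37 and 40 and 40 and 38 fragments, with folds of 5.32 and 5.74 and 5.15 and 4.90. Drl-FLAG peaks appeared at 5 of the 12 sites. At 67577921 to 67578820, Drl-FLAG 1 had 54 fragments at a fold of 3.41, and the Blf-FLAG lists had 43 and 41 fragments at folds of 6.96 and 6.64. Control background over the 12 sites was 9.16 to 22.2 times the genome-wide value, with a median of 18.6.

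**Figure D3:**
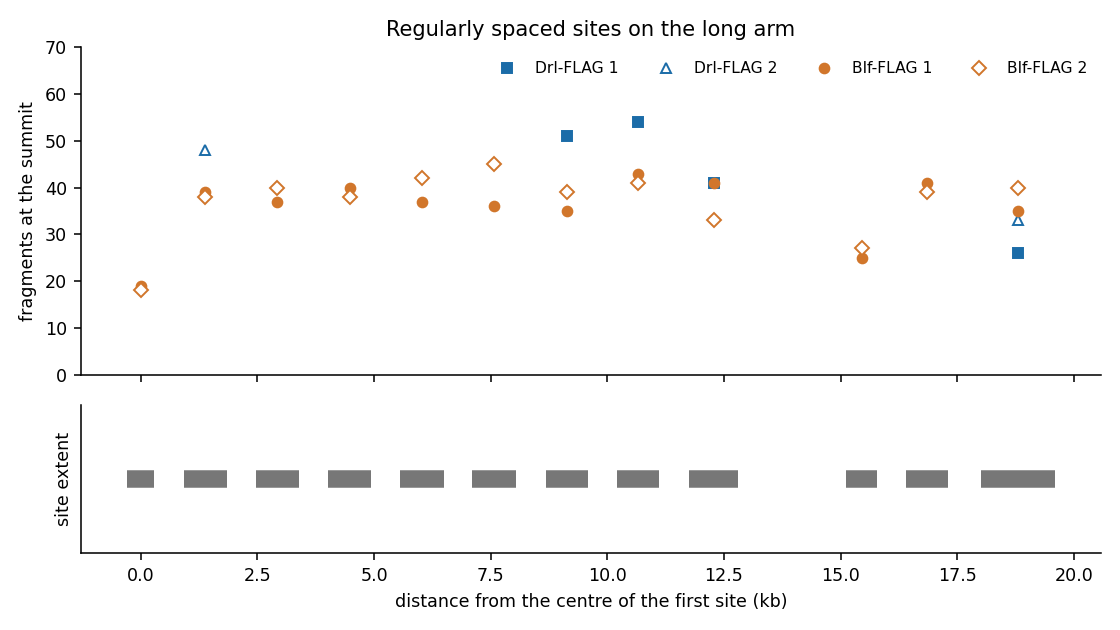
The 12 kept sites of the stretch that holds the evenly spaced run, by distance in kb from the centre of the first. Points give fragments at the summit in each list that called the site (squares and triangles Drl-FLAG, circles and diamonds Blf-FLAG), and bars in the lower panel give the extent of each site; Blf-FLAG values stay between 33 and 45 at the 8 sites spaced by about 1549 bp.

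The rule for such runs was written after this run had been seen, and required at least 4 consecutive kept sites whose distances stayed within 5% of their median. No distance could exceed 10 kb, so runs with wider steps were not sought. The rule found this run of 8 on the arm and 8 runs of 4 to 6 sites elsewhere, on chromosomes 1, 13, 15 and 25, with median distances of 4092.5 to 7169.5 bp. With a tolerance of 10%, 2 more runs of 4 Blf-only sites appeared on the arm. Their steps were of similar length but less even: 1556.5 to 1717.5 bp at 41354263 to 41359732, and 1389.5 to 1552.5 bp at 57797656 to 57802651. Distances of 1 to 2 kb made up 14.1% of all those on the arm, and a shared step was not tested. The 4 sites at 41.35 Mb held 34 to 40 fragments in Blf-FLAG 1 and 32 to 39 in Blf-FLAG 2, and those at 57.80 Mb 13 to 18 and 16 to 19. At that tolerance 14 runs were found elsewhere, the longest of 11 sites on chromosome 13 with a median distance of 4670 bp. Their shortest median distance was 2917.5 bp, in a run of 4 both-factor sites at 28877811 to 28887584 of chromosome 4, before the arm began.

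A different arrangement, a pair of Blf-only sites that recurred at a distance, was seen near 55.8 Mb. The pair from 55773931 to 55776251 had widths of 1172 and 755 bp and centres 1357.5 bp apart. The pair from 55805688 to 55808011, 31.8 kb further on, had widths of 1170 and 740 bp and centres 1369 bp apart. Fragments were as alike as the widths. The first sites of the pairs held 169 and 166 and 161 and 160 fragments in the Blf-FLAG lists, and the second sites 380 and 401 and 367 and 397. Between them lay a pair of 707 and 744 bp with centres 1119.5 bp apart, at 55790601 to 55792445. An unpaired Blf-only site at 55782758 to 55783223, between the first and the middle pair, had 8 fragments in each Blf-FLAG list. Near the end of the arm, pairs at 77553254 to 77555144 and 77564800 to 77566710 had widths of 574 and 688 bp and of 585 and 705 bp, with centres 1260 and 1266 bp apart.

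Control background was far above the genome-wide value at these pairs. It was 287 to 551 times that value at the 6 paired sites near 55.8 Mb, with folds of 1.63 to 2.46. Background at the unpaired site between them was at the genome-wide value. At the first sites of the pairs near the end of the arm it was 219 and 207 times, and it could not be read at the second sites. Of the arm's 344 sites with a read background, 24 were over 100 times the genome-wide value, all of them Blf-only. The genome held 30 such sites, and the 6 elsewhere were 3 both-factor, 2 Drl-only and 1 Blf-only. Background could not be read at 4 arm sites, both-factor sites among them. Blf-FLAG summits of the 24 held 140 to 547.5 fragments as means of the 2 lists, at median folds of 1.86 and 1.84. The highest background, 839 times, was at 55731034 to 55731803, with 511 and 584 fragments and folds of 1.87 and 2.31.

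**Figure D4:**
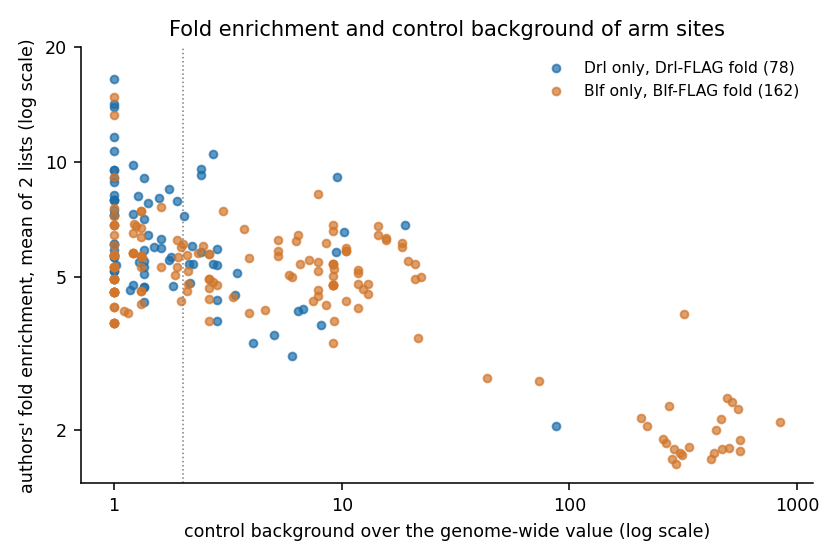
The authors' fold enrichment (mean of the 2 lists of the factor, log scale) against control background relative to the genome-wide value (log scale) for 78 Drl-only and 162 Blf-only arm sites. The dotted line marks 2 times. The 24 Blf-only sites beyond 100 times have folds between 1.53 and 4.02 in the single lists. Control background is the divisor of the fold, so the axes are not independent.

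Control background, read only at called summits, was raised at many of the arm's kept sites. More than 2 times the genome-wide value was read at 55.8% of the arm's sites with a read background (50.4 to 61.1), against 24.4% over the whole genome. Low values came in steps, such as 1.31 and 2.62 times at Blf-only sites, and none on the arm was below the genome-wide value. No other chromosome exceeded 39.3% (chromosome 15). On the arm the raised shares were 34.6% for Drl-only (24.2 to 46.2), 61.7% for Blf-only (53.8 to 69.2) and 61.4% for both-factor sites (49.0 to 72.8). Elsewhere they were 12.6%, 29.2% and 31.7% in the same order, so Drl-only sites had the lowest raised share there too. Background over 10 times was found at 19.5% of the arm's sites, against 3.24% of those elsewhere. Within the arm the raised share was highest from 55 to 60 Mb, at 76.2%, and lowest from 30 to 35 Mb, at 31.3%.

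Among sites whose background was not raised the arm looked different. There were 152 such sites, or 3.17 per Mb, against 4.11 per Mb elsewhere, whereas all kept sites came to 7.25 per Mb on the arm and 5.33 elsewhere. The interval of their median spacing was 95.2 to 193 kb, against 127 to 139 kb elsewhere. Close neighbours, counted among these sites alone, were found at 30.3% of them on the arm (23.1 to 38.2) and 21.6% elsewhere (20.5 to 22.8). Drl-only sites made up 33.6% of them on the arm (26.1 to 41.7) and 49.4% elsewhere (48.1 to 50.8). For Blf-only sites these were 40.8% (32.9 to 49.0) and 31.8% (30.6 to 33.1). Both densities divide by the whole span, with sequence of raised background included. Measured so, the density was higher on the arm only with raised-background sites included. The lower Drl-only share was found with and without them. The part that background takes in the class shares and spacing was not tested.

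**Figure D5:**
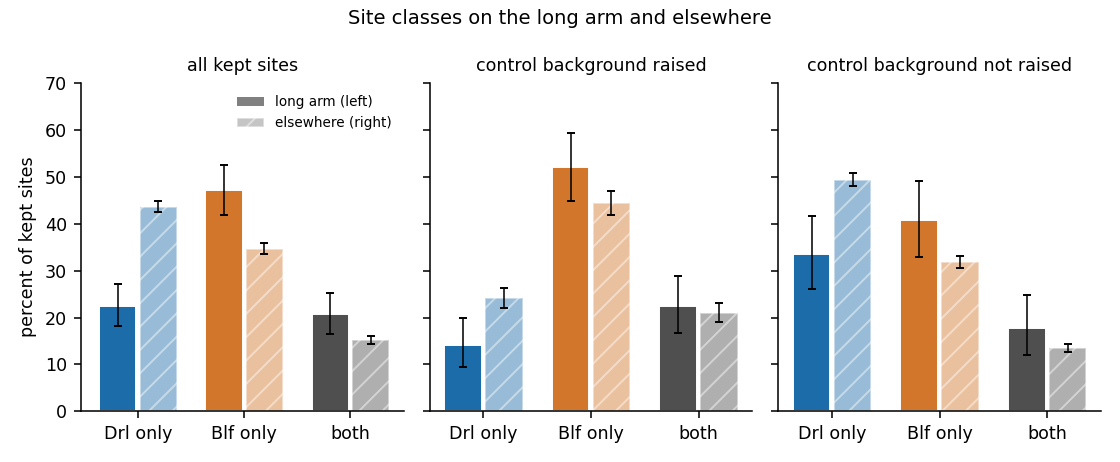
Shares of Drl-only, Blf-only and both-factor sites among kept sites on the long arm (solid, left) and elsewhere (hatched, right), in percent with 95% exact intervals, for all sites and by control background. The Drl-only share is lower on the arm in each panel, at 14.1% against 24.1% where background is raised and 33.6% against 49.4% where it is not.

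The largest group on the arm, at 42622562 to 42661203, lay mostly in low background. Its 14 sites over 38.6 kb were 11 Blf-only and 3 of both factors, with a median control background of 1.31 times the genome-wide value. Distances between centres ran from 1281.5 to 6920.5 bp and were not even. The strongest member, a both-factor site at 42636863 to 42637689, had 60 and 66 fragments in the Drl-FLAG lists (folds 16.4 and 13.5) and 64 and 61 in the Blf-FLAG lists (folds 35.7 and 27.8). The Blf-only members had 5 to 14 fragments in Blf-FLAG 1 and 5 to 15 in Blf-FLAG 2. The other both-factor members, at 42643021 to 42645172 and 42652661 to 42653494, had 11 fragments in each Drl-FLAG list and 10 to 11 in the Blf-FLAG lists.

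A group of 9 sites at 50122420 to 50148706 held 7 Blf-only sites and 2 with both Blf-FLAG lists and 1 Drl-FLAG list. Its 9 sites had 20 to 29 Blf-FLAG fragments in a list, at 9.16 to 13.1 times the genome-wide background. At 60161345 to 60193800, 4 Blf-only and 3 both-factor sites had 5 to 18 Blf-FLAG fragments, at up to 9.66 times that background. The first group is even in signal and background, and the second is not.

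The 2 Drl-only sites in groups of 4 or more were both in the group at 55805688 to 55817372, which begins with a pair described above. At 47021507 to 47028423, 4 sites lay within 6.92 kb, 3 with both Drl-FLAG lists and 1 Blf-FLAG list and 1 of both factors. At 47023198 to 47024001 the Drl-FLAG lists had 55 and 60 fragments at folds of 20.6 and 22.4, and Blf-FLAG 1 had 7 fragments at a fold of 4.40. Coverage differs between the factors, so these values do not rank one above the other. The both-factor member at 47025899 to 47028423 had Drl-FLAG folds of 43.2 and 43.9 and Blf-FLAG folds of 12.6 and 13.7. Its control background, read in the Blf-FLAG lists alone, was 11.8 times the genome-wide value. At 65221807 to 65233462 all 4 sites were of both factors, with Drl-FLAG folds of 4.18 to 12.7 and Blf-FLAG folds of 7.81 to 17.2. Control background there was 3.41 to 7.99 times the genome-wide value.

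Sites on the arm were wider than elsewhere. The median joined width was 646.5 bp (605 to 695) on the arm and 529 bp (522 to 535) elsewhere, and the medians of the 24 other chromosomes ran from 477.5 to 572 bp. Drl-only sites had a median of 514.5 bp (489 to 575) on the arm and 504 bp (495 to 513) elsewhere. Blf-only sites had 585.5 bp (534 to 639) on the arm and 460 bp (453 to 469) elsewhere. For both-factor sites the medians were 834 bp (785 to 948) and 823.5 bp (800 to 847). Of these 3 classes the intervals stayed apart for Blf-only sites alone, in joined widths. Single Blf-FLAG peaks were wider on the arm at Blf-only sites, with medians of 512.5 and 525 bp in the 2 lists against 435 and 437 bp elsewhere, and also at both-factor sites, with 668.5 and 668 bp against 543 and 540 bp. Single Drl-FLAG peaks at both-factor sites had medians of 650 and 682 bp on the arm and 654 and 642 bp elsewhere. Where background was not raised, the Blf-only medians were 507.5 bp on the arm and 444 bp elsewhere, and where it was raised 619 and 525 bp.

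The widest sites were mostly of both factors. The widest of all, 6811 bp from 51838252 to 51845062, was of both factors, with Drl-FLAG folds of 41.7 and 29.8 and Blf-FLAG folds of 13.6 and 16.0. Next came a Blf-only site of 4410 bp at 68688081 to 68692490, with folds of 2.77 and 2.58 at 73.2 times the genome-wide background. The other 3 of the 5 widest were both-factor sites of 4076 bp (42934527 to 42938602), 3357 bp (55758820 to 55762176) and 3319 bp (41340805 to 41344123). In all, 14 of the 348 sites (4.02%) were wider than 2 kb, against 1.26% elsewhere. Of the 14, 10 were of both factors, or 13.9% of the arm's both-factor sites, against 5.69% elsewhere. A site of all 4 lists joins more peaks than a site of 2, which can widen it.

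The highest-ranked sites, by the mean percentile of the authors' fold within the lists, were described for each class with the values that ranked them. Among Drl-only sites, the one at 37838580 to 37840227 led with folds of 16.7 and 16.3 and 35 and 34 fragments. The second, at 72723486 to 72724403, had folds of 14.0 and 14.4, and the third, at 46981883 to 46982394, had 14.0 in both lists. The other 2, at 44649430 to 44650188 and 55723744 to 55724210, had folds of 10.3 to 12.1. All 5 lay at the genome-wide background. That background is the divisor of the fold, so ranking by fold favours sites where it is low.

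Among Blf-only sites, the one at 59401393 to 59402073 led with folds of 13.7 and 16.0 and 17 and 20 fragments. The second, at 62203145 to 62204182, had folds of 15.2 and 11.4 and 19 and 14 fragments. The third, at 75025655 to 75026818, had folds of 8.38 and 9.90. These 3 lay at the genome-wide background. The fourth, at 42473441 to 42474135, had folds of 9.54 and 6.94 at 7.85 times that background, and the fifth, at 60184675 to 60185117, had 7.97 and 7.31 at 1.61 times.

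Both-factor sites reached the highest folds. The leading one, at 42939861 to 42941666, had Drl-FLAG folds of 73.9 and 74.5 and Blf-FLAG folds of 19.5 and 20.6. The third, at 42934527 to 42938602, lay 1258 bp before it, with Drl-FLAG folds of 35.3 and 35.2 and Blf-FLAG folds of 21.2 and 21.5. The second, at 58164895 to 58167944, had folds of 40.4 and 40.3 in the Drl-FLAG lists, against 23.1 and 21.0 in the Blf-FLAG lists. The fourth, at 55758820 to 55762176, had 262 and 268 Drl-FLAG fragments and 60 and 58 Blf-FLAG fragments. These 4 were 1806 to 4076 bp wide. The fifth, at 61299328 to 61300614, was the most enriched for Drl, with folds of 139 and 134, and lay 72842 bp from its nearest kept neighbour.

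Where both factors were called, the distance between their summits was measured in 1 pairing of lists. In Drl-FLAG 1 and Blf-FLAG 1 the highest summits lay a median of 77 bp apart at the 72 both-factor sites of the arm, and 130 bp apart at the 1054 elsewhere. They were within 100 bp of each other at 54.2% of the arm's sites (42.0 to 66.0) and at 42.1% of those elsewhere (39.1 to 45.2), intervals that overlap. The width of a site limits how far apart its summits can lie. The distance that width alone would give was not worked out.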

How the data were processed

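The submitters' processing notes name MACS2, Bowtie2 2.4.2 and SAMtools 1.10, and also bedtools 2.30.0, Picard 2.26.1, bcl2fastq and FastQC 0.11.9; the build was GRCz11. How reads that map to several places were treated is not given in the sources used here, and this could change peaks in repeats. The authors deposited 1 narrowPeak list per anti-FLAG library, each peak with its fold enrichment, −log10 p-value, −log10 q-value and a score for display. Folds are the authors' values and serve here to describe and rank peaks of 1 list.

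Fragments and background at each summit were worked out by inverting the formulas of MACS2 (Poisson upper tail, fold with a pseudocount of 1), accepting a fit within 0.05% of the fold. On the arm 95.7% to 98.9% of each list's peaks could be read, and those with −log10 p above 290 could not. A site's background is the mean over those of its lists that could be read, at the highest-fold peak, relative to the commonest value of the list. At some strong both-factor sites it rests on the Blf-FLAG lists alone. Steps were checked on simulated data, which did not cover the lowest and highest fragment counts or the highest backgrounds read here. Mitochondrial peaks were left out. Work was done in Python 3.11.15 with pandas 2.3.3, NumPy 2.4.6, SciPy 1.17.1 and matplotlib 3.10.9.

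The sites described singly are the 5 highest-ranked of each class, the 5 widest, the first and last, the tightest 5, the 3 longest gaps and the densest bins, by a rule set with the tests. The evenly spaced runs, the recurring pairs and the groups described one by one were chosen after their values were seen. The members, lists and rules were chosen with earlier results of these data known. No genome or annotation of GRCz11 was used here, so neither genes nor sequences are given. Labels do not say whether libraries came from separate embryos.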

Additional observations from a re-analysis of the deposited data

How the results depend on the processing

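Of 106 alternative values, 74 stayed inside the interval of the value reported. At −log10 q from 5 up, the arm held 9.52% of Blf-only sites (reported 6.40%), the median width was 721 bp and background was raised at 62.6% of sites. With the 2000 peaks of highest q per list, 53.1% of arm sites were Blf-only, the arm held 3.16% of Drl-only sites (reported 2.52%) and 10.02% of Blf-only sites, spacing was 70.8 kb, width 741 bp and the raised share 67.6%. Leaving out 1 list at a time gave Drl-only shares of arm sites of 19.3% to 28.8%, Blf-only shares of 45.1% to 56.6%, widths of 532 to 605.5 bp, spacing of 29.5 to 39.0 kb, raised shares of 52.9% to 55.8% and close-neighbour shares of 54.9% to 58.2%. The arm then held 2.59% to 2.91% of Drl-only, 6.25% to 6.60% of Blf-only and 6.15% to 6.93% of both-factor sites, and the evenly spaced run count was 1 each time. Limits of 1.5 and 3 times gave raised shares of 62.5% and 43.9%; limits of 5 and 20 kb gave close-neighbour shares of 47.7% and 62.9%. Without raised-background sites, the Drl-only and Blf-only shares were 33.6% and 40.8%. The arm then held 1.90% of Drl-only, 3.53% of Blf-only and 3.63% of both-factor sites. Spacing was 150.0 kb, width 586.5 bp and the close-neighbour share 30.3%, with neighbours counted among the sites left. In lone sites, chosen after seeing the data, the Drl-only and Blf-only shares were 32.0% and 39.9%, the width 571 bp and the raised share 40.5%. A tolerance of 10% gave 3 evenly spaced runs on the arm and 14 elsewhere. Reciprocal overlap, another arm start and leaving out the last 1 Mb moved no value out of its interval. Causes were not tested. No paired analysis was possible because each factor counts as 1 sample here, its lists being within sampling noise at the summits compared. Nothing was tested over samples. Depth limits the calls of Blf absence, and no alternative equalised it.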

Other observations

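Overlapping peaks of the 2 lists of a factor had the same start and end less often on the arm than over the genome. Of the Drl-FLAG 1 peaks on the arm, 162 of 208 (77.9%) overlapped a Drl-FLAG 2 peak, and 16 had the same start and end, 9.88% of those overlapping. Over the genome these shares were 84.6% and 31.3%. For Blf-FLAG, 267 of 353 (75.6%) overlapped and 35 were identical (13.1%), against 72.6% and 30.4%. Summits coincided at 36.9% of the arm's Drl sites (29.4 to 44.9) and 57.3% of those elsewhere (55.8 to 58.8). Where background was not raised the Drl shares were 39.3% on the arm (28.8 to 50.5) and 64.2% elsewhere (62.6 to 65.8), and where it was raised 33.8% and 26.8%. For Blf sites without raised background they were 51.6% (41.1 to 62.0) and 57.5% (55.5 to 59.4).

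Next to the last of the 8 evenly spaced sites lay a site that was not kept, at 67581662 to 67582486. It had a peak in Drl-FLAG 2 with 33 fragments and one in Blf-FLAG 1 with 16 fragments.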
